A study of Mus musculus with 28 samples.

Results

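A set of 410 regions of the mouse genome carried a peak of acetylated histone H3 lysine 27 (H3K27ac) in all 3 libraries of cells with Fabp7 knocked down and in 0 of the 9 libraries of the other groups. They were found by merging the overlapping peaks of all 12 H3K27ac lists into 32703 regions, of which the members make up 1.25%. The members were chosen by these H3K27ac calls, so their H3K27ac values are given as a description and carry no test. Chromatin immunoprecipitation and sequencing was done on mouse lung adenocarcinoma cells, for H3K27ac and for acetylated histone H3 lysine 9 (H3K9ac), with 3 biological replicates per mark and group. The knockdown cells (Res_shFabp7) were a line resistant to PD-1 blockade that carried a hairpin against Fabp7. Their control (Res_Ctrl) was the resistant line with the genotype "Control" in the labels. The wild-type resistant line (Res) was labelled as treated with PD-1 inhibitors, which the labels of the Res_shFabp7 and Res_Ctrl libraries do not mention, and the wild-type sensitive line (Sen) was the fourth group. One hairpin is named, so any effect of the hairpin sequence itself and the loss of Fabp7 cannot be told apart. Whether the replicates came from separate cultures is not stated beyond the word biological, so the spread between libraries may be technical.

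H3K27ac marks active promoters and active enhancers, where acetyltransferases such as Ep300 deposit it, and H3K9ac lies mostly at active promoters. A region acetylated in one state of a cell and not in another is a usual candidate for a promoter or enhancer in different use. Fabp7 encodes a fatty acid binding protein, best known from glia, which carries fatty acids through the cytoplasm, and the series title ties such proteins to ferroptosis, a cell death by lipid peroxidation.

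The members that sit on promoters with an annotated start were few, and 4 of them are shown because the H3K9ac results turn on them. Zfp667 (chr7:6286330-6286629, plus strand) and Paqr5 (chr9:62026741-62027040, minus strand) are the 2 starts with both marks in all Res_shFabp7 libraries and in no other library. Nsdhl (chrX:72918271-72918570, plus strand) and Gemin8 (chrX:166170204-166170503, plus strand) are starts that carried H3K9ac in other groups too. The sequences are from RefSeq on GRCm38.p6, the assembly called mm10, run 5′ to 3′ from 250 bases before to 50 bases after the start, and have CpG dinucleotides in capitals.

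Zfp667: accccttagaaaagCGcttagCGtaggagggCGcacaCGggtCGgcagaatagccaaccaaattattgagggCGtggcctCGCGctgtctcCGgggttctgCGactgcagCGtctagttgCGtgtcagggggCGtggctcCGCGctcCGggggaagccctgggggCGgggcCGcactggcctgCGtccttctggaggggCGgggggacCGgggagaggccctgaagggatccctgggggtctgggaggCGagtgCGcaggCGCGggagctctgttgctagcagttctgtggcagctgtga
Paqr5: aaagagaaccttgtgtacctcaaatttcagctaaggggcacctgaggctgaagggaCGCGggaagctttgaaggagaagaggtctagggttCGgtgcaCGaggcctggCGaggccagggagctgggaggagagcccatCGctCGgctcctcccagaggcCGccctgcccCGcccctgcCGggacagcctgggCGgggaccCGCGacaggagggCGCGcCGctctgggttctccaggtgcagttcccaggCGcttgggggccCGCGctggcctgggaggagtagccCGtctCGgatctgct
Nsdhl: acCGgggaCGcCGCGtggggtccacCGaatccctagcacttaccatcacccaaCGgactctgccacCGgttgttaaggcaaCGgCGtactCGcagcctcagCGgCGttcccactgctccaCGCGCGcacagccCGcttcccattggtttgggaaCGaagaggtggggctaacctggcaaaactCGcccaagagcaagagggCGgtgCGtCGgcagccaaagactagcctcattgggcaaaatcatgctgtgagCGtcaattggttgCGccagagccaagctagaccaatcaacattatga
Gemin8: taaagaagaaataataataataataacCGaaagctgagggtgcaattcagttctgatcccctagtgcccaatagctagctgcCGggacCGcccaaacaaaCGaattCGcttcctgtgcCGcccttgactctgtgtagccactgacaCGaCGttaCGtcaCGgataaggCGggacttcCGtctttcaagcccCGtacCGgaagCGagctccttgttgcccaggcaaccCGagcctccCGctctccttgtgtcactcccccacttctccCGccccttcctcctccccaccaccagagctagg

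These windows held 25 CpG dinucleotides at Zfp667, 21 at Paqr5, 23 at Nsdhl and 18 at Gemin8. In all, 22 members covered the annotated start of a gene in the promoter table, and their windows held a median of 18 CpG dinucleotides and 58.8% G and C, against 13 and 56.3% over all 17492 promoters. Of 16 short motifs searched on both strands, none of which holds another whole, 7 were found in these 22 windows. The GC box GGGGCGGGG lay in 2, Zfp667 and Paqr5 (9.09%, against 15.5% of all promoters), and the TEAD motif GGAATG in 4 (18.2% against 13.4%). C/EBP (TTGCNNAA) lay in 3 (13.6% against 10.1%), AP-1 (TGANTCA) in 2 (9.09% against 7.08%) and the NRF2 and MAF element TGACNNNGC in 2 (9.09% against 13.2%). The cyclic AMP element TGACGTCA lay in 1 (4.55% against 2.34%) and the ETS core CCGGAAGT in 1 (4.55% against 5.29%). The other motifs were in 0 of the 22 windows. Over all promoters the E-box CACGTG lay in 7.90%, RUNX (TGTGGTT) in 4.84%, the C/EBP and ATF4 composite TGATGNAA in 3.69%, and FOX (TGTTTAC) in 2.94%. The CTCF core lay in 4.33% of all promoters, the GATA motif AGATAAG in 2.64%, NF-kB in 0.389%, HNF1 in 0.0572% and the full NFI site in 0.0400%. A match is only these letters in the window.

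The cell identity was read from H3K27ac at gene ends. Peaks lay at 9 to 11 of 22 epithelial markers and at 12 to 16 of 25 lung lineage markers per library. The keratins Krt7, Krt8, Krt18 and Krt19 were marked in all 12 libraries and the E-cadherin gene Cdh1 in 11, while Epcam was marked in 1 and the lung adenocarcinoma factor Nkx2-1 in 0. Immune cell markers were marked at 3 of 20 genes in every library, fibroblast and endothelial markers at 1 or 2 of 15, and neural and glial markers at 2 or 3 of 15. Fabp7 itself (chromosome 10, 57784923 to 57788450, mm10) had no peak within 1 kb, of H3K27ac or H3K9ac, in any library. The nearest member lay 3096226 bases from it. The nearest H3K27ac peak lay 5688 to 5790 bases from Fabp7 in the Res libraries. It lay 5864 and 5709 bases away in Res_shFabp7 replicates 2 and 3. In Res_shFabp7 replicate 1 and all Res_Ctrl and Sen libraries it lay 251886 to 251997 bases away. For H3K9ac the nearest peak lay 6099 and 5886 bases away in Res replicates 2 and 3, and 251744 to 252027 bases elsewhere. The cause of these differences was not tested. The libraries held 15856 to 28934 H3K27ac peaks. The 3 Res_shFabp7 libraries had 23131, 27107 and 28934, each more than any other library except that the second Sen library (23348) exceeded the first of them.

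The members were weak peaks. In the 3 Res_shFabp7 libraries they held a median of 61 tags (34 to 229), 84 tags (30 to 251) and 130 tags (50 to 407). The raw count was highest in the third library for 374 members (91.2%), which is also the library with the most tags in peaks (10.5 M, against 5.10 and 7.17 M in the first 2; M, 1e6). Scaled to each library's tags in peaks, the medians were 11.97, 11.7 and 12.4 tags per M, so the 3 libraries were close to each other. The authors score each peak by -10 log10(p), and the median score of the members was 74.9, 125.5 and 165.6, which ranked them at the percentiles 10.3, 20.2 and 25.9 of their own lists. Regions with a peak in all 12 libraries had median scores of 638, 1078 and 1449 in the same libraries. The members' median length was 2059 bases, against 2642 bases over all merged regions and 3802 bases for those in all 12 libraries.

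The deposited lists give no count where no peak was called. The 10th percentile of the peaks of a list stood at 12.5 to 16.2 tags per M tags in peaks in the Res_Ctrl libraries, at 13.2 to 16.1 in the Res libraries and at 12.4 to 23.7 in the Sen libraries. In the Res_shFabp7 libraries it stood at 11.97, 8.51 and 7.32. The median member, at about 12 tags per M, stood above the weakest peak of 8 of the other 9 lists (5.31 to 8.61 tags per M) and below that of the first Sen list (14.3). Peaks at or below the members' median made up 0 to 9.56% of the other 9 lists and 10.7%, 21.4% and 26.4% of the Res_shFabp7 lists. An absent peak does not show that acetylation was absent, and the part of list depth in the definition was not tested.

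**Figure D1:**
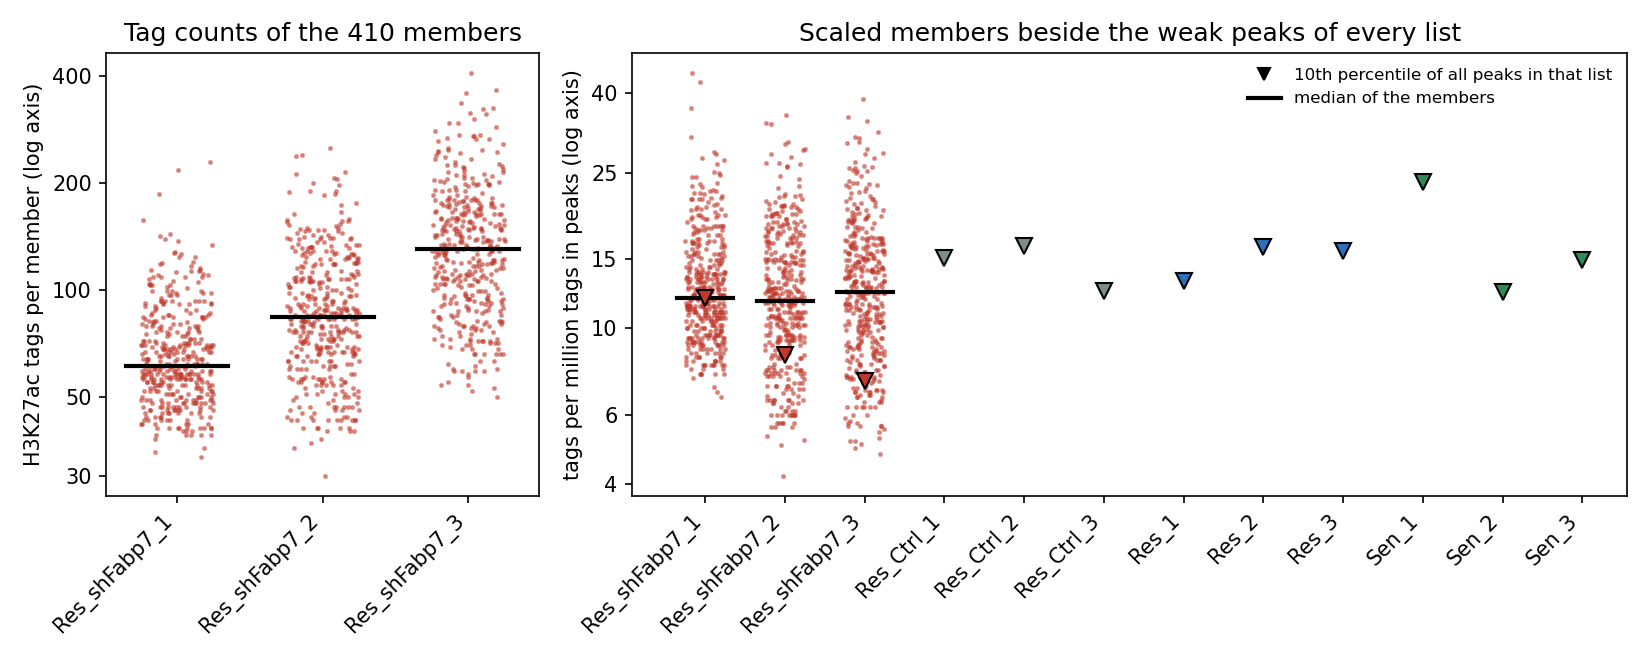
H3K27ac tags of the 410 members in each Res_shFabp7 library on log axes, raw (left) and per M tags in peaks (right); each point is a member and each black line a median. Triangles mark the 10th percentile of all peaks of each of the 12 lists (7.32 to 23.7 tags per M); the members' medians of 11.7 to 12.4 sit near or under the triangles of the 9 Res_Ctrl, Res and Sen libraries.

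The number of members differed with the peaks admitted. With the Res_shFabp7 lists trimmed to their 21097 best peaks, the median length of the other 9 lists, 107 of the 410 remained; this setting was chosen after seeing the data. With the 15856 highest-scoring peaks of every list 62 regions met the definition, and only members 1, 2 and 3 of the 410 were among them (members are numbered by their mean score). A score of 100 or more in each Res_shFabp7 library left 72. Asking that score of all 12 lists gave 380 regions, of which 72 were members. The others did not meet the definition once peaks of lower score were admitted. Without the first Res_shFabp7 library the definition took in 1561 regions, and without the 3 Sen libraries 756.

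**Figure D2:**
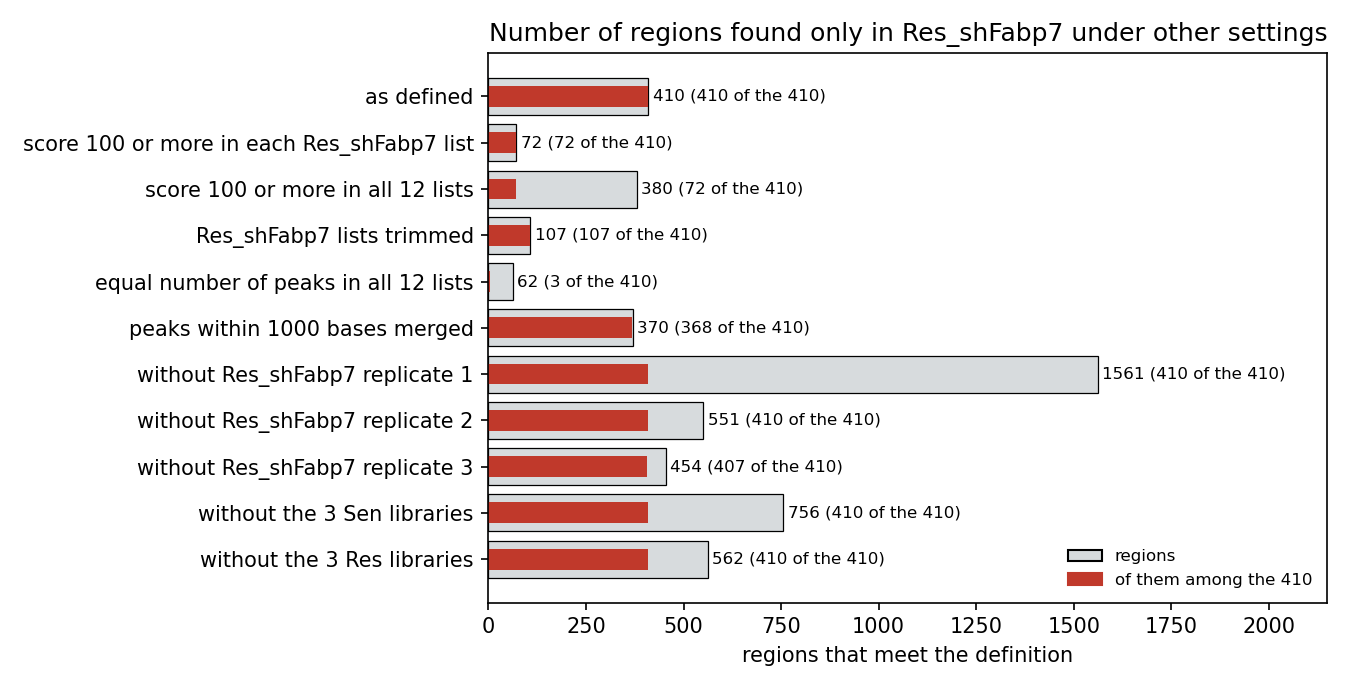
Number of regions that meet the definition under other settings (grey bars, with the value printed), and how many of them are among the 410 members (red bars). Equal lists leave 62 regions, 3 of them members, while leaving out the first Res_shFabp7 library gives 1561, all 410 members included.

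The same definition applied to the other groups gave 707 regions only in Res, 17 only in Sen and 9 only in Res_Ctrl, so Res_shFabp7 was not the group with the most regions of its own. Just outside the definition stood 455 regions with peaks in 3 of 3 Res_shFabp7 and 1 of the 9 other libraries. That other peak was in the third Res_Ctrl library for 166 of them (36.5%) and in the second Sen library for 106 (23.3%), and in the first Sen library, the shortest list, for 0. The strongest of these near misses lay in Ncald, a neuronal calcium sensor, with 71, 293 and 358 tags in Res_shFabp7 and 130 tags in 1 Sen library. The next lay in Igsf5 (179, 246 and 319 tags in Res_shFabp7, 54 in 1 Sen library) and in Bbs9 (119, 274 and 367 in Res_shFabp7, 79 in 1 Res_Ctrl library). A further 1303 regions had peaks in 2 of 3 Res_shFabp7 libraries and no other, and for 1143 of them (87.7%) it was the first library that lacked one. The 3 weakest members held 50, 43 and 53 tags at Gja4, a gap junction gene, 43, 69 and 59 tags near Slc5a7, and 57, 47 and 55 tags near Snx3.

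Most members lay away from promoters, as did most regions just outside the definition. Of the 410, 48 (11.7%) were within 1 kb of an end of a protein-coding gene, against 32.7% of all merged regions and 63.4% of those in all 12 libraries. Another 213 (52.0%) lay inside a gene farther from its ends, against 34.7% of all merged regions. Outside genes, 56 (13.7%) lay within 25 kb of a gene end and 93 (22.7%) farther, against 14.5% and 18.05%. Only 25 members (6.10%) were within 1 kb of an annotated start, against 26.2% of all merged regions. Of the regions found only in Res 14.6% were at a gene end, 39.6% inside a gene and 29.7% over 25 kb from a gene end. The 455 regions just outside the definition had 14.5% at a gene end, 45.7% inside a gene and 11.2% within 1 kb of an annotated start. For the 1303 regions with peaks in 2 of 3 Res_shFabp7 libraries and no other, these shares were 7.60%, 48.0% and 5.45%. The placement was thus not particular to the members, and the differences in placement were not tested. Of the members 24 (5.85%) had another member within 25 kb. Of the 707 regions found only in Res 110 (15.6%) had another of their kind so near, and of the 455 regions just outside the definition 14 (3.08%). The sets differ in size, and the part of set size in these shares was not tested.

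**Figure D3:**
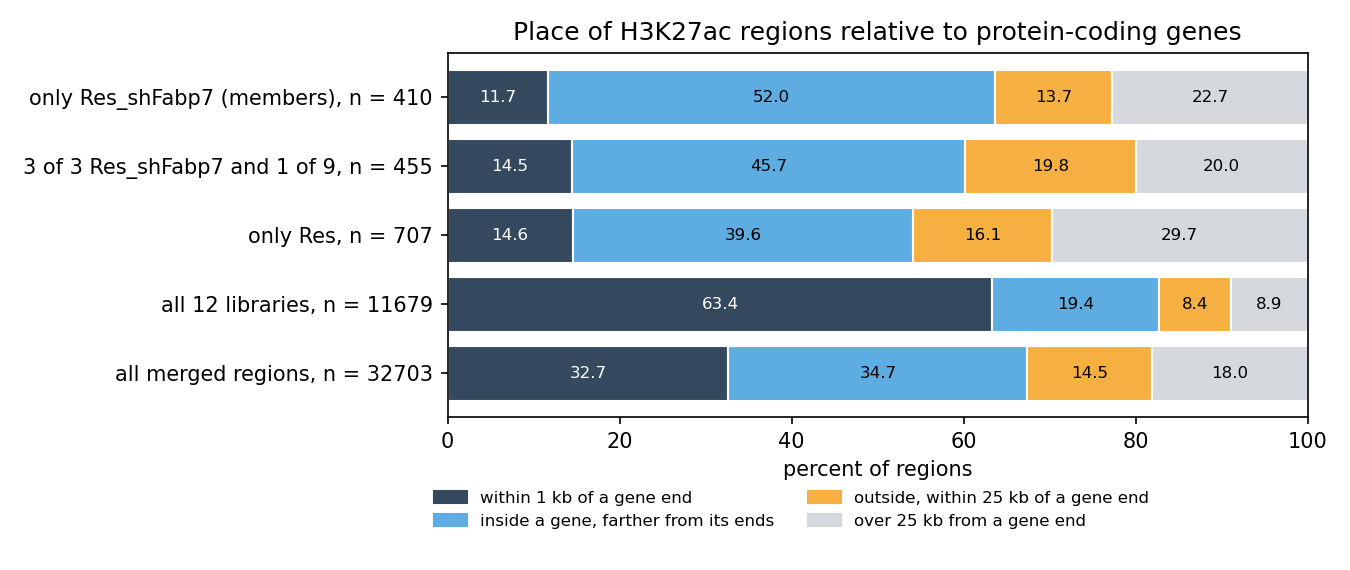
Share of H3K27ac regions by place relative to protein-coding genes, as stacked bars in percent for the members and 4 comparison sets. The members have 11.7% at gene ends and 52.0% inside genes, against 32.7% and 34.7% over all merged regions.

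The strongest members lay between genes or inside them, 1 of the 10 at a gene end. Member 1 (chromosome 15, 15283788 to 15286694) was in a gene desert, 1441860 bases from the cadherin gene Cdh9, with 137, 212 and 295 tags. Member 2 (chromosome 19, 47629582 to 47633187) lay inside Slk, a kinase that acts on the cytoskeleton in cell migration, with 229, 215 and 364 tags. Member 3 (chromosome 10, 81100520 to 81104228) had 114, 251 and 322 tags, 1648 bases from the end of Creb3l3, a membrane-bound transcription factor of lipid metabolism in liver. It was 167 bases from a region with a peak in all 12 libraries. These 3 were also the members that remained with lists of equal length.

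Member 4 (chromosome 11, 119713873 to 119719166) lay inside Rptor, which encodes the Raptor subunit of the growth kinase complex mTORC1, with 69, 240 and 407 tags. Member 5 was in Map3k13, a kinase upstream of JNK, with 71, 205 and 325 tags. Member 6 was in Il1rapl2, a receptor of the interleukin 1 receptor family, with 57, 238 and 315 tags. In these 3 the first library was the lowest and the third the highest, by over 4-fold in raw tags. Member 7 lay 33896 bases from Nrcam, a neuronal adhesion gene, with 99, 186 and 335 tags. Member 8 lay 283612 bases from the adhesion receptor gene Adgrl4 (144, 118 and 248 tags), and member 9 lay 32015 bases from the membrane progestin receptor gene Paqr8 (126, 140 and 266 tags). Member 10 was at Fndc10, with 58, 185 and 267 tags. Of these 10, members 1 and 2 carried H3K9ac, each in all 3 Res_shFabp7 libraries and in 0 of the 9 others, and the other 8 carried none in any library.

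Few genes held several members. Of 470 genes with a member in them or within 25 kb, 27 had 2 or more and 4 had 3: Rptor, Eepd1, Snx29 and Glis3. At Rptor 3 of its 20 H3K27ac regions were members: member 4, member 308 next to it (46, 66 and 90 tags) and member 22 (chromosome 11, 119835149 to 119837819; 109, 164 and 212 tags). Eepd1, which encodes a DNA repair nuclease, had 3 members among 8 regions, with 142, 129 and 211 tags at the strongest. Snx29, a sorting nexin gene, had 3 of 14 (93, 125 and 171 tags at the strongest), and Glis3, a zinc finger transcription factor gene, 3 of 20 (120, 206 and 214 tags). Il1rapl2 had 2 members among only 3 regions, member 6 and member 16 (59, 126 and 287 tags), as had Col17a1, Pde4b and Klra2. Over all merged regions 1.25% were members. The genes with 3 members and Il1rapl2 are long, from 122598 bases for Eepd1 to 1278324 bases for Il1rapl2. Genes with 2 members also included short ones, such as Prdx5 (3410 bases) and Leng8 (11165 bases). The part of gene length in these counts was not tested.

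The gene lists written for this study held few of the members. Over all protein-coding genes, 251 of the 13048 with an H3K27ac region in them or within 1 kb had a member (1.92%). None of the 14 fatty acid binding, uptake and activation genes with a region had one, nor did any of 22 ferroptosis drivers, 23 genes of the unfolded protein and integrated stress responses, or 21 interferon response genes. The counts were also 0 for 12 class I antigen presentation genes, 20 checkpoint ligands and cytokines, 16 NF-kB genes, 29 AP-1, CREB and early response factors, and 27 hypoxia and glycolysis genes. They were 0 for 14 epithelial, 16 lung lineage, 3 immune, and 7 fibroblast and endothelial markers. With lists of this size and a background of 1.92%, a count of 0 or 1 is near the background.

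The remaining 8 lists had 1 gene each, on 7 members. Elovl6, which elongates saturated fatty acids, was 1 of 17 fatty acid synthesis genes; its member (chromosome 3, 129546571 to 129548870) lay inside the gene, with 70, 127 and 133 tags. Plin2, the main coat protein of lipid droplets, was 1 of 19 lipid droplet genes, with 61, 73 and 81 tags. Gss, glutathione synthetase, was 1 of 25 ferroptosis suppressors, and Acss2, which makes acetyl-CoA from acetate, was 1 of 30 histone acetylation genes. Gss and Acss2 shared member 57 (chromosome 2, 155561835 to 155564227; 83, 131 and 157 tags), which covers the end of Acss2 at 155562743 and the near end of Gss at 155563181, so the region cannot be given to either. Of these 7 members it was the only one with a score of 100 or more in each Res_shFabp7 library.

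Nsdhl, an enzyme of cholesterol synthesis whose start is printed above, was 1 of 28 cholesterol genes; its member 209 (chromosome X, 72918433 to 72919590) is shared with the neighbour Cetn2 and had 57, 44 and 98 tags. Per3, a clock gene, was 1 of 21 clock genes (49, 85 and 134 tags, 620 bases outside its end and shared with Uts2). Itga5, the alpha subunit of a fibronectin receptor, was 1 of 19 mesenchymal genes (69, 113 and 236 tags). Mbp, the myelin basic protein gene, was 1 of 4 neural markers with a region. Its member lay inside the gene (55, 118 and 148 tags), and an end of Mbp had an H3K27ac peak in all 12 libraries. H3K9ac was present at the Nsdhl member in 3 of 3 Res_shFabp7 and 4 of the 9 other libraries, at the Itga5 member in 1 Res_shFabp7 library, and at the other 5 members in none.

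H3K9ac was measured with a second antibody that the definition did not use. Of the members, 45, 56 and 50 carried an H3K9ac peak in the 3 Res_shFabp7 libraries, or 12.3% ± 1.34 (SD, n = 3). In Res_Ctrl the counts were 3, 7 and 26 (2.93% ± 2.997), in Res 2, 6 and 10 (1.46% ± 0.976) and in Sen 17, 22 and 21 (4.88% ± 0.645). Each Res_shFabp7 library was above every library of the other groups, and the third Res_Ctrl library stood above its group. Over all merged H3K27ac regions the shares were 49.3% ± 2.63 in Res_shFabp7, 39.0% ± 6.09 in Res_Ctrl, 38.3% ± 1.58 in Res and 46.2% ± 1.63 in Sen. The H3K9ac lists held 17485 ± 900.5 peaks in Res_shFabp7, 13700 ± 2280 in Res_Ctrl, 13347 ± 584 in Res and 16100 ± 435 in Sen (mean ± SD, n = 3 each), so the number of peaks moved with these shares. With the 11771 highest-scoring H3K9ac peaks of every list, a setting chosen after seeing the data, 3, 3 and 6 members had one in Res_shFabp7, against 3, 1 and 1 in Res_Ctrl, 0 in each Res library and 2, 3 and 2 in Sen. Res_shFabp7 then overlapped Res_Ctrl and Sen. Most members had none of this mark: 343 had no H3K9ac peak in any of the 12 libraries.

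H3K9ac was called at most promoter members and at few of the rest. Of the 25 members within 1 kb of an annotated start, 22, 24 and 23 had an H3K9ac peak in the Res_shFabp7 libraries, against 3, 4 and 16 in Res_Ctrl, 1, 4 and 5 in Res, and 10, 13 and 13 in Sen. Over all 8574 merged regions at annotated starts the share with H3K9ac was 93.6% ± 0.744 in Res_shFabp7, 87.8% ± 4.73 in Res_Ctrl, 89.2% ± 1.23 in Res and 92.1% ± 0.595 in Sen (SD, n = 3 each). At the starts the members' shares in Res_shFabp7 (88.0% to 96.0%) thus spanned those of all such regions, and the members were lower in the other 3 groups. The 51 regions at starts among those just outside the definition had 86.9% ± 4.08 in Res_shFabp7, 43.8% ± 32.2 in Res_Ctrl, 39.2% ± 12.2 in Res and 71.9% ± 4.08 in Sen. In all, 20 of the 25 had H3K9ac in at least 1 library outside Res_shFabp7, where no H3K27ac peak was called over them. Of the other 385 members 23, 32 and 27 had H3K9ac in Res_shFabp7, against 0, 3 and 10 in Res_Ctrl, 1, 2 and 5 in Res, and 7, 9 and 8 in Sen. Over all merged regions away from starts the shares were 33.6% ± 3.30 in Res_shFabp7, 21.7% ± 6.59 in Res_Ctrl, 20.2% ± 1.71 in Res and 29.9% ± 1.99 in Sen. The division at starts was made after the values were seen. Of the 25 members at starts 3 remained with the Res_shFabp7 H3K27ac lists trimmed and 0 with equal numbers of H3K27ac peaks. A score of 100 or more in each Res_shFabp7 library left 2 of them.

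**Figure D4:**
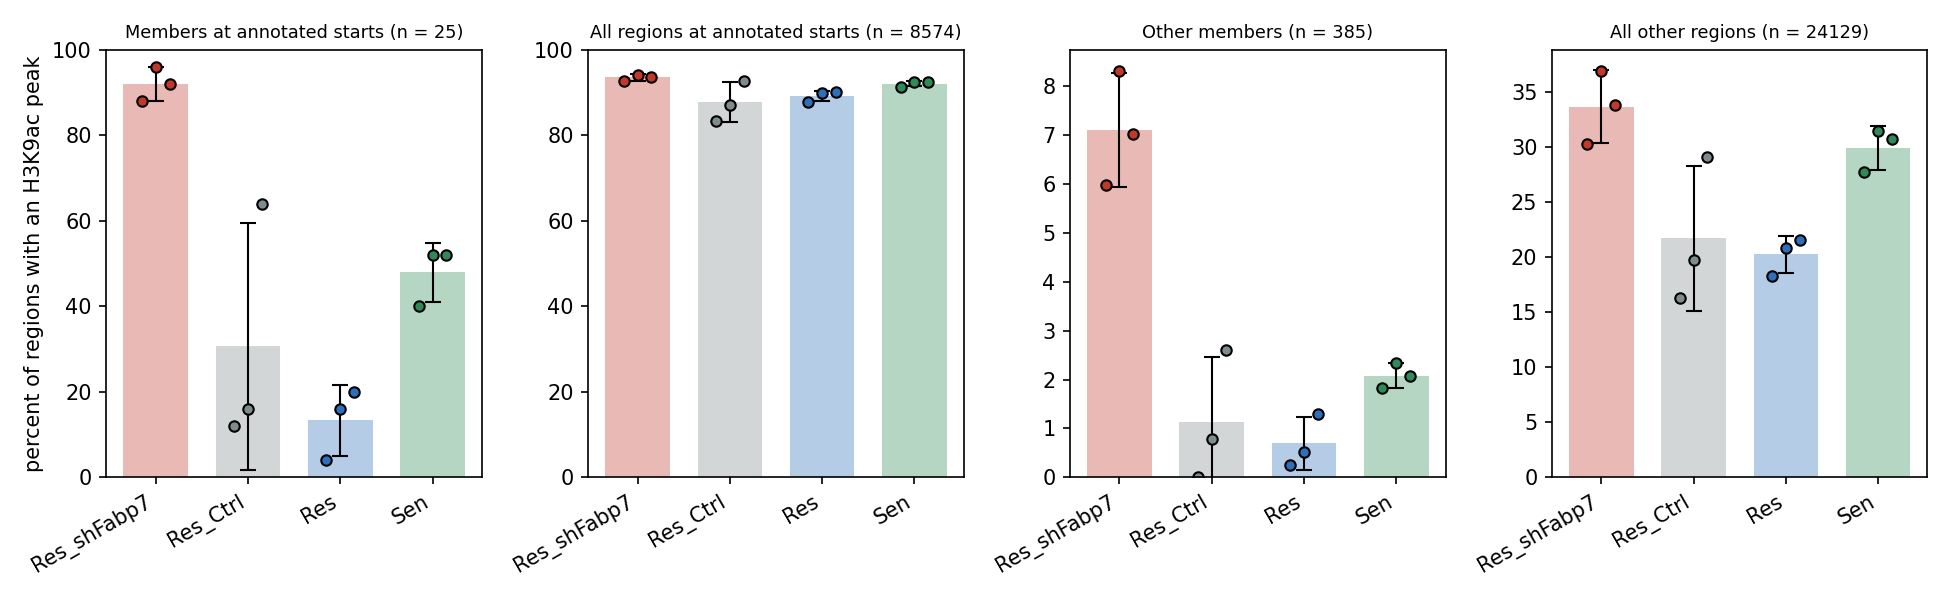
Percent of regions with an H3K9ac peak in each library (points), with the mean and SD of 3 libraries per group (bars), for members and all merged H3K27ac regions at annotated starts, and for both elsewhere; the panels away from starts have scales of their own. At starts members reach 88.0% to 96.0% in Res_shFabp7 libraries, against 92.8% to 94.3% over all regions; elsewhere they reach 5.97% to 8.31%, against 30.2% to 36.8%.

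In 10 members (2.44%) H3K9ac was called in all 3 Res_shFabp7 libraries and in 0 of the 9 others, the pattern of the definition itself; 0.676% of all merged regions did so. Of the 455 regions just outside the definition 4 did (0.879%), and of the 707 regions only in Res 0. Member 1, in the gene desert near Cdh9, had 66, 131 and 64 H3K9ac tags, and member 2, in Slk, 66, 101 and 111. Member 22, in Rptor, had 77, 82 and 90. Taf3, a subunit of the general transcription factor TFIID, held member 61 (57, 74 and 85 H3K9ac tags), and Araf, a RAF kinase gene on chromosome X, held member 70 (83, 150 and 109). Ica1, an islet autoantigen gene, held member 80 (77, 123 and 48), and Dcps, a scavenger enzyme of mRNA decay, member 146 (46, 72 and 64). Member 194 (77, 129 and 120) lay 75219 bases from Hmga2, a chromatin protein of embryonic and tumour cells.

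The 2 promoters among the 10 are those printed above. At Zfp667, a zinc finger gene, member 191 (chromosome 7, 6285504 to 6287125) had 56, 61 and 120 H3K27ac tags and 95, 122 and 92 H3K9ac tags. At Paqr5, a membrane progestin receptor gene, member 342 (chromosome 9, 62026158 to 62027468) had 56, 63 and 60 H3K27ac tags and 62, 56 and 57 H3K9ac tags. Of the 10 members 6 remained when the Res_shFabp7 H3K27ac lists were trimmed, and Zfp667 and Paqr5 were not among them. With H3K9ac peaks of score 100 or more 4 of the 410 members kept this H3K9ac pattern, and with equal numbers of H3K9ac peaks 0 did. An interferon-induced pair outside the gene lists, Ifit3b and Ifit1bl1, named after its values were seen, had 217, 190 and 357 H3K27ac tags in member 46 and H3K9ac in 2 Res_shFabp7 and 0 other libraries.

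H3K9ac tag counts could be tested only where a peak was called in all 6 libraries of a comparison. Between Res_shFabp7 and Res_Ctrl 8.03% of 11152 regions changed by edgeR's quasi-likelihood test at an adjusted p of 0.05, 2.84% higher and 5.18% lower, and 2 members overlapped a tested region. At the start of Gemin8, which encodes a part of the SMN complex, H3K9ac was 30.4, 41.5 and 36.5 CPM (tags per M tags in tested regions, TMM-scaled) in Res_shFabp7, against 34.0, 35.6 and 32.5 CPM in Res_Ctrl. The groups overlapped (log2 difference 0.10 ± 0.14, standard error; edgeR adjusted p = 0.699). At Erc2, an active zone protein gene, it was 17.6, 23.2 and 18.7 CPM in Res_shFabp7, against 23.1, 21.4 and 16.7 CPM in Res_Ctrl (-0.0050 ± 0.18; edgeR adjusted p = 0.989). Neither passed by edgeR or by DESeq2, and the unadjusted p of edgeR was 0.482 and 0.978. By the definition, both had H3K27ac peaks in all Res_shFabp7 libraries and in no Res_Ctrl library. Only members with H3K9ac already called in every Res_Ctrl library could be tested, so these 2 do not stand for the other members.

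Against Res, 50.5% of 11396 regions changed, 24% higher and 26.5% lower, and 1 member was tested. Member 261, on chromosome X, 8315 bases from Tspyl2, had 27.3, 25.4 and 30.3 CPM of H3K9ac in Res_shFabp7, against 18.5, 18.4 and 19.5 CPM in Res, a log2 difference of 0.56 ± 0.14 (edgeR adjusted p = 0.0061), with groups that did not overlap. Per called base that difference was -0.22 (edgeR adjusted p = 0.118). Against Sen, where 31% of 13732 regions changed, 16% higher and 15% lower, 14 members were tested, 2 were higher and 0 lower. With single libraries left out 0 to 3 were higher and 0 or 1 lower. They were member 261 (25.4, 23.6 and 28.4 CPM in Res_shFabp7, against 19.1, 17.7 and 18.1 CPM in Sen; 0.50 ± 0.14, edgeR adjusted p = 0.013) and the start of Tle2, a Groucho family corepressor gene. At Tle2 H3K9ac was 23.7, 22.1 and 19.999 CPM in Res_shFabp7, against 11.5, 16.9 and 15.3 CPM in Sen (0.55 ± 0.16; edgeR adjusted p = 0.0199). These 2 of 14 are near the background of 16%. The call of member 261 against Sen was lost without Sen replicate 2 or 3, or without the third Res_shFabp7 library (edgeR adjusted p of 0.051 to 0.061), and per called base (0.041, adjusted p = 0.928). That of Tle2 was lost without the first or second Res_shFabp7 library or the third Sen library (0.054 to 0.076), so 0 members were called without the third Sen library. Lower calls appeared at member 339 without the first Sen library (-0.75, edgeR adjusted p = 0.00089; 3 higher in that setting) and at member 153 without the second Res_shFabp7 library (-0.72, edgeR adjusted p = 0.0090); with all libraries they stood at -0.53 and -0.42 (edgeR adjusted p of 0.082 and 0.117). The 3 comparisons share the Res_shFabp7 libraries.

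Chromosome X held 14 members among 579 regions, 2.42 per 100, the highest of any chromosome, and chromosome 11 held 15, 0.650 per 100, the lowest. Of the 14, 9 had H3K9ac in all 3 Res_shFabp7 libraries, and 8 of these 9 in another library too. That is 64.3% of the members on X, against 9.27% of all members, 56.1% of all merged regions on X and 45.3% of all merged regions. Members at an annotated start were 35.7% on X and 6.10% in all, and merged regions at one 44.0% on X and 26.2% in all. Among them were 5 starts, Gemin8, Nsdhl, Prickle3, Trmt2b and Tspan7, named after their values were seen.

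Genes with a member were also examined at their ends, where H3K9ac is usual. Of the 251 genes 146 had a tested H3K9ac region within 1 kb of an end, and between Res_shFabp7 and Res_Ctrl 8 were higher (5.48%) and 6 lower (4.11%). Over all 9622 genes with such a region 2.22% were higher and 3.59% lower. The median log2 difference was 0.015 for the 146 genes and 0.016 for all 9622. The 14 genes were named after their values were seen. Of the listed genes above, Elovl6 (-0.014), Plin2 (-0.021), Gss (-0.085), Per3 (0.082), Itga5 (-0.039) and Mbp (-0.19) were tested and not called. Their edgeR adjusted p was 0.199 to 0.940. Slk (0.19, edgeR adjusted p = 0.070), Rptor (0.26, 0.107), Glis3 (-0.21, 0.069) and Snx29 (0.092, 0.781) were not called either.

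Evl, an actin regulator of the Ena/VASP family, was the largest increase: H3K9ac was 87.4, 93.3 and 96.8 CPM in Res_shFabp7, against 61.8, 66.2 and 58.9 CPM in Res_Ctrl (log2 difference 0.58 ± 0.08, edgeR adjusted p = 0.0013). Fmr1, which encodes the RNA-binding protein FMRP, had 81.3, 78.9 and 86.1 CPM in Res_shFabp7, against 57.1, 63.5 and 63.0 CPM in Res_Ctrl (0.42 ± 0.08, edgeR adjusted p = 0.0085), with no overlap in either gene. Evl passed under every alternative run (adjusted p at most 0.045), and its member 81 (chromosome 12, 108688210 to 108691569; 91, 155 and 234 tags) lay at the other end of the gene from the tested region (108553947 to 108556697) and is shared with Degs2. Fmr1, whose member 121 lay inside the gene (64, 122 and 172 tags), was lost per called base (-0.21, adjusted p = 0.149) and without the third Res_shFabp7 library (0.056). The other increases were smaller, from 0.17 at Gtf2i to 0.29 at the Mediator kinase gene Cdk8, with Mbd5, Cspp1, Zfhx4 and Rictor, a subunit of mTORC2, between them. All 6 lost the call per called base, where Zfhx4 was called lower (-0.31, edgeR adjusted p = 0.017), and without the second or the third Res_shFabp7 library. All but Cdk8 also lost it without the first Res_shFabp7 or the first Res_Ctrl library, Cspp1, Gtf2i, Mbd5 and Rictor without the second Res_Ctrl library, and Gtf2i and Zfhx4 without the third (edgeR adjusted p of 0.057 to 0.155 over these leave-outs). Mbd5 and Rictor lost it by DESeq2 (adjusted p of 0.065 and 0.053). With the replicate number as a block, Gtf2i, Mbd5 and Rictor lost it too (edgeR adjusted p of 0.062, 0.068 and 0.057). Among decreases, Ank1, an ankyrin gene, had 34.5, 41.2 and 33.0 CPM in Res_shFabp7, against 53.2, 50.7 and 47.3 CPM in Res_Ctrl (-0.46 ± 0.12, edgeR adjusted p = 0.035). Jak1, the kinase of interferon and cytokine receptors, had 54.0, 52.5 and 53.7 CPM in Res_shFabp7, against 77.8, 61.9 and 70.1 CPM in Res_Ctrl (-0.39 ± 0.10, edgeR adjusted p = 0.028). Sh3pxd2a, a scaffold of invadopodia, Ubr4, Rbpms and Arhgap26 were lower by smaller amounts, from -0.31 to -0.19. Rbpms lost its call without the first or the third Res_shFabp7 library. The other 3 lost it without any Res_shFabp7 library or the second Res_Ctrl library (edgeR adjusted p of 0.062 to 0.127 over these leave-outs). Ubr4 lost it per called base too (0.068). Sh3pxd2a and Arhgap26 lost it with the replicate number as a block (edgeR adjusted p of 0.051 and 0.057). Ank1 was lost without the first or the third Res_shFabp7 or the first or second Res_Ctrl library, and Jak1 without any Res_shFabp7 library or the first Res_Ctrl library (adjusted p of 0.061 to 0.147).

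An H3K27ac region inside or at a gene thus stood beside higher and lower calls of H3K9ac at its ends, and mostly beside none. Without the third Res_shFabp7 library 1 gene was called higher and 0 lower, without the first 3 and 0, without the second 2 and 2, and without the second Res_Ctrl library 5 and 2. The share of all genes called higher also differed by setting. Genes with a member called higher were 2.05% without the first Res_shFabp7 library, against 0.572% of all genes, 1.37% without the second (against 0.520%) and 0.685% without the third (against 0.561%). They were 2.05% without the first Res_Ctrl library, against 2.26% of all genes, 3.42% without the second (against 0.977%) and 6.16% without the third (against 3.55%). Without the first Res_Ctrl library 3 were higher and 8 lower (5.48%, against 3.28% of all genes), and without the third 9 and 7 (4.79%, against 4.01%). Per called base 1 was higher and 35 lower (24.0%, against 19.9% of all genes), with a shift of the median over all genes to -0.19.

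**Figure D5:**
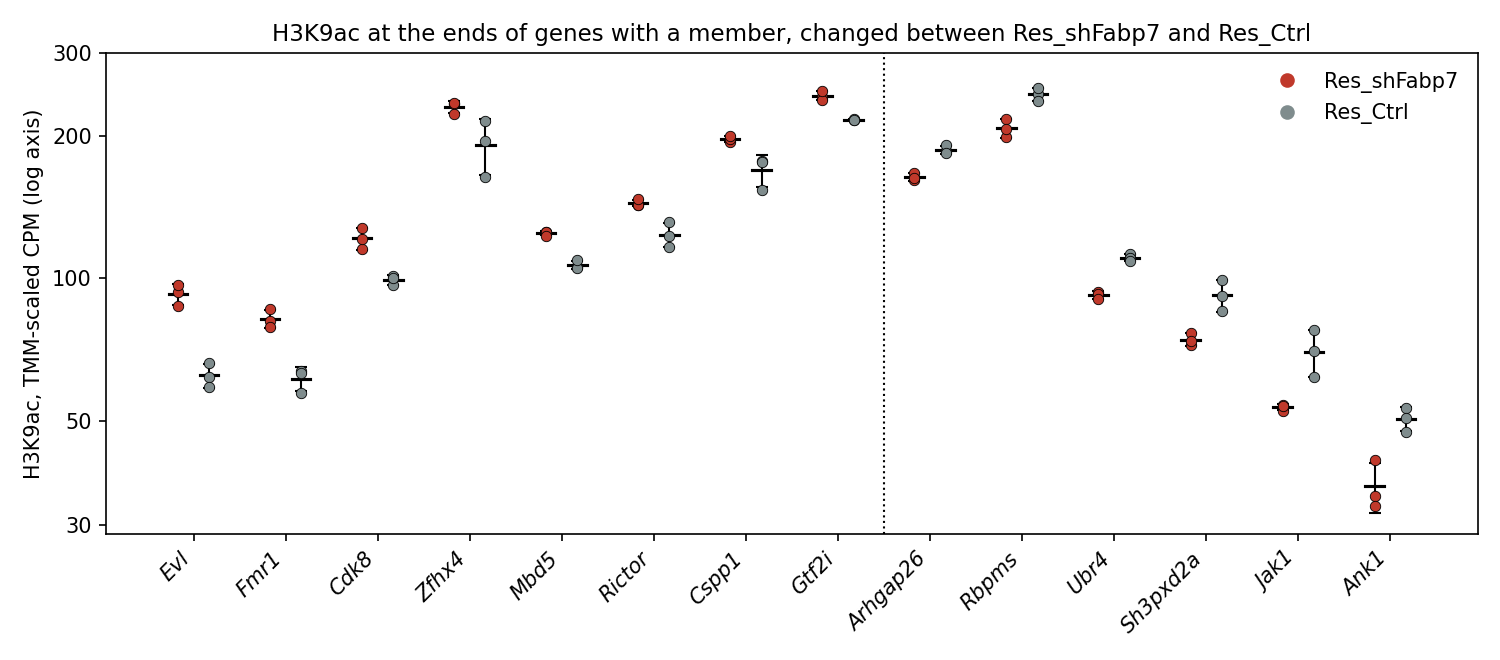
H3K9ac in TMM-scaled CPM (log axis) at the 14 genes with a member whose end region changed between Res_shFabp7 and Res_Ctrl; points are libraries, short lines means and bars SD (n = 3 each). The 8 genes left of the dotted line are higher in Res_shFabp7 and the 6 right of it lower; Evl reaches 87.4 to 96.8 CPM in Res_shFabp7 and 58.9 to 66.2 CPM in Res_Ctrl.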

How the data were processed

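The 24 immunoprecipitated libraries (12 H3K27ac, 12 H3K9ac) were used, and the 4 input libraries were not used here. Fixation was with 1% formaldehyde for 10 minutes, and sequencing gave 53 to 158 M single reads of 50 bases per sample (M, 1e6), per the labels' protocols. Bowtie 1.1.2, MACS 1.4.2 and the build mm10 are named in the submitters' processing notes; their settings and the use of the inputs in peak calling were not given in the sources used here. The authors deposited 1 peak list per library, with a raw tag count per peak, a score (-10 log10 of the caller's p-value, 50 or more) and a fold ratio over the caller's background. Scores and folds are the authors' values. Scores were used to rank or filter peaks within a list and as a cut of 100 across lists. Their mean over the 3 Res_shFabp7 lists numbered the members. The score was highest in the third Res_shFabp7 library for 314 members, so this ranking leans on that library. The lists held 2.24 to 10.5 M tags in H3K27ac peaks and 2.57 to 11.5 M in H3K9ac peaks per library; these are not sequencing depth, which the lists do not give. Where no peak was called, the lists give no count. Over the 24 pairs of replicates, at most 0.0101% of intervals were identical, so no list was a copy of its replicate's list. Each library was counted as 1 replicate, though this check cannot tell separate cultures from technical repeats.

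Peaks of the 12 H3K27ac lists that shared 1 base or more were merged. Genes were 21887 protein-coding genes of RefSeq on GRCm38.p6 with their outer ends, and 17492 of them had an annotated start. H3K9ac peaks of the 6 libraries of a comparison were merged in the same way, and regions with a peak in all 6 were tested with edgeR 4.0.16 (R 4.3.3; quasi-likelihood test, TMM, Benjamini-Hochberg over all tested regions, threshold 0.05); DESeq2 1.42.0 was an alternative. The edgeR step was run on simulated data with changes larger than those called here at genes with a member. That run does not bear on calls of this size. For each gene the tested region at its ends with the most tags was taken. CPM are relative to the tags in tested regions. The standard error printed with an edgeR log2 difference is its absolute value over the square root of the test's F statistic. It was thus derived from the test and is not a separate measure of spread. The 410 members, the gene lists and the motifs were chosen with earlier results of these data known, so list counts carry no test. Named are Fabp7, the 10 highest-scoring members, members with H3K9ac only in Res_shFabp7, members that overlap a changed H3K9ac region between Res_shFabp7 and Res_Ctrl (there were 0), members at listed genes, the genes with the most members, and values at the edge of the definition; other names were chosen after their values were seen.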

Additional observations from a re-analysis of the deposited data

How the results depend on the processing

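The number of members was 380 with scores of 100 or more in every list, 411 with an overlap of 100 bases and 370 with peaks merged within 1000 bases. It was 62 with equal lists, 72 with a score of 100 or more in each Res_shFabp7 library, 107 with trimmed Res_shFabp7 lists (added after seeing the data), 756 without the Sen group, 562 without the Res group, and 410 to 1561 with single libraries left out. Members with both marks only in Res_shFabp7 were 4 with H3K9ac scores of 100 or more, 0 with equal H3K9ac lists, 7 with at least 0.5 of the member covered, and 10 to 12 with libraries left out. The share with an H3K9ac peak was 9.35 percentage points higher in Res_shFabp7 than in Res_Ctrl, 0.569 points with equal lists and 8.25 to 11.1 with libraries left out. Fewer peaks were used in the equal and trimmed settings by construction.

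H3K9ac regions changed between Res_shFabp7 and Res_Ctrl were 895 in the edgeR test, 943 by DESeq2, 2932 per called base (2 higher and 2930 lower) and 326 to 1113 with libraries left out; against Sen they were 1357 per called base in place of 4254. Genes with a member that changed were 14, and 36 per called base and 1 to 16 with libraries left out. In edgeR fits with the replicate number as a block, genes with a member that changed were 9 (5 higher, 4 lower) and regions 756 between Res_shFabp7 and Res_Ctrl. The deviations of same-numbered libraries of these 2 groups from their group means had correlations of 0.0265, 0.0237 and -0.0525. With 3 libraries per group these values cannot show whether the numbers pair the samples. The signs of uncalled members turned: Gemin8 to -0.31 per called base and -0.018 without the second Res_shFabp7 library (up to 0.20 without another), and Erc2 to 0.064 and 0.039 without the first and the third Res_shFabp7 and 0.087 and 0.044 without the first and second Res_Ctrl libraries (down to -0.15 without another). Per called base, member 261 turned to -0.22 against Res, Fmr1 to -0.21, Mbd5 to -0.052 and Zfhx4 to -0.31. The cause of these turns was not tested. The share at gene ends was 14.9% within 2500 bases, against 11.7%. The search for motifs around peak summits was not run, since no genome sequence was used here.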
